A study of Mus musculus with 40 samples.

Results

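In Th2 cells labelled Setdb1 KO, 24280 of 97020 peaks of the histone mark H3K4me1 on chromosomes 1 to 19 and X overlapped no H3K4me1 peak of wild-type (WT) Th2 cells, a share of 25%. These KO-only peaks were chosen by position alone. A peak of the KO list was kept when it shared no base with either of 2 WT lists, one from the same second experiment and one from the first experiment. The remaining 72740 KO peaks, called shared here, overlapped a WT peak by at least 1 bp, and 16009 peaks of the second WT list overlapped no KO peak. Since H3K4me1 in KO and WT cells chose the members, all values of that mark in these cells are a description and carry no test. The remaining measurements did not enter the choice: the acetylation mark H3K27ac, open chromatin by ATAC-seq, the silencing mark H3K9me3, H3K4me1 in naive cells, and RNA.

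H3K4me1 marks enhancers, both those that are active and those that are only poised. H3K27ac is added where an enhancer or promoter is active, and H3K9me3 marks silenced chromatin, including many transposable elements. SETDB1 is one of the enzymes that methylate lysine 9 of histone H3. Th2 cells are CD4 T helper cells that make IL-4, IL-5 and IL-13, and they keep the Th1 program of T-bet and interferon gamma silent.

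All cells were CD4 T cells from mouse spleen. WT cells were C57BL/6 Setdb1+/+ and KO cells were C57BL/6 Setdb1-/-. Another genotype, Suv39h1-/-, entered only through its H3K9me3 list. Naive cells were taken at culture day 0. Th2 cells were cultured for 6 days, first on anti-CD3epsilon with anti-CD28, in medium with 50 ng/mL IL-4 and an antibody against interferon gamma, and later with 30 IU/mL IL-2. Cells called Th2-Th1 were Th2 cells moved for 2 days to 10 ng/mL IL-12 with an antibody against IL-4. The labels used here name neither the allele's deletion nor any Cre driver, give no age, and leave it unsaid whether replicates came from separate animals or cultures. P-values therefore measure the spread between libraries.

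Several features of the samples bear on every comparison. RNA came from 18 libraries, and the deposited values are normalised read counts per gene. Total reads were 36.261 to 44.719 M in the 3 Th2 libraries labelled KO and 10.141 to 13.258 M in the 3 Th2 WT libraries, so very low genes were seen more easily in KO. The RNA of Setdb1 went against the KO label in Th2 cells: it was 694, 933 and 841 in WT and 8070, 9044 and 8342 in KO, a log2 difference of 3.37 ± 0.12 (SE, limma, adjusted p = 7.22e-14). In naive cells it was 1336, 1366, 1325 and 1214 in WT and 1103, 933 and 984 in KO (-0.38 ± 0.11, limma, adjusted p = 0.0319), where 10.9% of genes were called. Th2-Th1 cells read 1611 and 1594 in WT and 7389, 5430 and 5914 in KO (1.95 ± 0.13, limma, adjusted p = 3.04e-09), where 33.7% were called. A value per gene does not show which exons were read, so it cannot check a deletion within the gene, and KO below means labelled Setdb1 KO. Each peak list is a single list per genotype, from 1 library or, for H3K9me3 (except naive KO), naive H3K4me1 and the first WT H3K4me1 list, from 2 libraries that the files do not show apart. Read depth is not known from these files, and peak names in the KO H3K4me1 list carry signs of merged replicates that the second WT list lacks. Genotype and such pooling cannot be told apart. The naive and first WT lists were made with another lot of the H3K4me1 antibody than both lists of the second experiment.

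Few KO-only peaks covered the start of a gene, and 4 of those that did are shown with the bases they covered. KO-only peaks touched 403 promoter windows (250 bases before to 50 bases after the start, RefSeq, GRCm38.p6). Of the 194 that belonged to tested genes, 17 lay wholly inside KO-only peaks. Among these, without predicted genes, 9 belonged to genes called in RNA with no overlap between KO and WT libraries. That count and the windows below also leave out a whole chromosome, so promoters there were not considered. The 4 windows below were picked from those 9 after their values were seen, as the 3 largest rises and the largest fall. Each is written 5′ to 3′ on the strand of its gene, in lower case, with matches to a searched motif in capitals. The windows are chr8:123158231-123158530 (minus strand), chr1:152954851-152955150 (plus), chr9:104337673-104337972 (minus) and chr1:20730655-20730954 (plus).
Sult5a1: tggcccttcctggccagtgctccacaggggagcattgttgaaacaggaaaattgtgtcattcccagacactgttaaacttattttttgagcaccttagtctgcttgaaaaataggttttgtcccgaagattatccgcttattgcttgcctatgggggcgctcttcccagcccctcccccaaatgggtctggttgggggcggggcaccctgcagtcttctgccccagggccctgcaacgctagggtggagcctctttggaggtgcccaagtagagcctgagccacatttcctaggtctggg
Nmnat2: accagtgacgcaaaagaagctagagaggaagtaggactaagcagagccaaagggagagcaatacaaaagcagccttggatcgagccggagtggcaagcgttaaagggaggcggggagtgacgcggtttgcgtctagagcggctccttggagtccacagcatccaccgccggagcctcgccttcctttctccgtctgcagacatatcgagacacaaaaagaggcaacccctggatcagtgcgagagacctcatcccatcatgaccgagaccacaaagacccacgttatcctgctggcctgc
Acpp: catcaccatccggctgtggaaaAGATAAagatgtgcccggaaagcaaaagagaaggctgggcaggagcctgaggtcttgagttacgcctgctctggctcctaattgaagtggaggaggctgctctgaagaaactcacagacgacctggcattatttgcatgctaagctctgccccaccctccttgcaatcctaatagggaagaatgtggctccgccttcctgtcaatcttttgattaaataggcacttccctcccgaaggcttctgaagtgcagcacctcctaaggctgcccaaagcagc
Il17a: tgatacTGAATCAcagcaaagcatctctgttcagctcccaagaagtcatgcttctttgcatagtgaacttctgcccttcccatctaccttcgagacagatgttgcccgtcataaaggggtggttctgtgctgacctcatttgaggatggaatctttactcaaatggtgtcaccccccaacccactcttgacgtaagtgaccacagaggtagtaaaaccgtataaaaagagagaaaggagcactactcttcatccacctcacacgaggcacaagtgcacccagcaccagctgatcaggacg
The motifs were searched on both strands. A match to AGATAA, the core bound by GATA factors, stood in the Acpp window, and a match to TGANTCA, the core bound by AP-1, stood in the Il17a window. The letters AGATAA occurred in 11.2% of all 32619 promoter windows and in 10.4% of the 403 touched by a KO-only peak, and TGANTCA in 7.85% and 7.44%. The STAT core TTCNNNGAA occurred in 8.34% and 6.70%, the T-box core TCACACCT in 1.28% and 2.48% (10 windows), and the interferon-response core (GAAA, a pair of any bases, GAAA) in 3.46% and 3.23%. Matches of the STAT and interferon-response cores can share bases. A match is a run of letters and not a bound site.

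RNA at these promoters moved in both directions. Sult5a1, a sulfotransferase gene, was at 0 in all 3 Th2 WT libraries and at 565, 514 and 690 in the KO libraries. Set against a floor of 3 reads in each WT library, its mean was at least 92.6-fold higher, where the floor covers counting error only. Its window lay in a KO-only peak of 1375 bp that overlapped no H3K27ac, ATAC or naive H3K4me1 peak. Nmnat2, an enzyme of NAD synthesis known from neurons, read 10.1, 5.57 and 9.98 in WT and 61.6, 31.8 and 48.5 in KO (log2 2.33 ± 0.49, SE, limma, adjusted p = 0.00047). Acpp, an acid phosphatase, read 10.1, 20.4 and 7.48 in WT and 39.3, 38.5 and 65.4 in KO (1.91 ± 0.41, limma, adjusted p = 0.000538), and its peak lay in ATAC peaks of both genotypes, in a WT H3K27ac peak and in a naive H3K4me1 peak. Il17a, the defining cytokine of Th17 cells, read 52.4, 68.7 and 57.4 in WT and 8.34, 12.1 and 7.99 in KO (-2.54 ± 0.64, limma, adjusted p = 0.00224). The next falls were those of Tcaf2 (listed as Fam115c), from 415, 553 and 489 to 92.6, 111 and 67.9 (-2.43, limma, adjusted p = 0.027), and of Atp6v1f, a proton pump subunit, from 2486, 2537 and 2088 to 871, 878 and 913 (-1.41, limma, adjusted p = 1.36e-06). The choice required that KO and WT libraries do not overlap, and it left out a whole chromosome. Of the 194 tested genes with a touched promoter, 25.3% were called higher and 21.6% lower in KO, against 29.3% and 24.7% of all 17254 genes tested. In RNA from whole cultures, fewer cells of a type and less RNA per cell cannot be told apart.

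KO-only peaks were mostly short and weak, with a minority of broad ones. Their median width was 249 bp, against 916 bp for shared KO peaks and 443 bp for WT peaks absent from KO. Their median score by the peak caller, 10 times -log10 of its q, was 14 against 20 for shared KO peaks, and their median fold over background was 2.71 against 3.08; both values are the authors'. Only 1312 were wider than 1000 bp and 235 wider than 2000 bp. At the edge of the rule, 898 KO-only peaks lay within 100 bp of a WT peak (median width 209 bp, median score 13), and 1868 shared peaks touched WT peaks by 100 bp or less (208 bp and 14). The median gap to the nearest WT peak was 2757 bp. Peaks absent from one list are common even between the WT lists: 19.5% of second-experiment WT peaks overlapped none of the first WT list, while 30.9% of KO peaks overlapped none of the second WT list.

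Most KO-only peaks lay away from gene starts, and their share varied by chromosome. 57.1% lay within a gene span and 1.54% touched a promoter window, against 61.6% and 6.18% of shared peaks. Chromosome 17 had the highest share of KO-only peaks among its KO peaks (30.3%, 1377 of 4541) and the X chromosome the lowest (17%, 264 of 1549). The X was also the one chromosome with fewer KO than second-experiment WT peaks (ratio 0.956, against 1.22 to 1.39 on the autosomes).

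KO-only peaks were seldom enhancer-marked in naive WT cells. H3K4me1 peaks of naive WT cells overlapped 3528 of them, 14.5% (95% exact binomial interval 14.1 to 15). The same list overlapped 54.7% of shared KO peaks and 17.3% of WT peaks absent from KO. The gap to shared peaks was also present within classes of width: among peaks over 200 and up to 500 bp wide the shares were 15.5% of KO-only and 45.2% of shared peaks, and among those over 2000 bp they were 8.94% and 69%. The intervals given for shares cover the counting of peaks only, since each list is 1 value per genotype, and no test of the differences between shares was possible.

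A small fraction of KO-only peaks was acetylated in KO cells and not in WT cells. H3K27ac peaks of KO cells overlapped 1392 KO-only peaks (5.73%) and those of WT cells 510 (2.1%). These lists, both of the second experiment, held 40670 peaks over 47.1 Mb in KO and 31218 peaks over 52.8 Mb in WT. Of the KO-only peaks, 1058 (4.36%, interval 4.1 to 4.62) overlapped an H3K27ac peak in the KO list only, 334 in both lists and 176 in the WT list only. WT peaks absent from KO showed the mirror pattern, with 4.66% acetylated in the WT list only and 1.15% in the KO list only. Broad KO-only peaks were acetylated most often: among the 235 over 2000 bp, 65.1% lay in KO H3K27ac and 6.38% in WT H3K27ac, while shared peaks of that width were at 76.3% and 70.7%. The 1058 peaks acetylated in the KO list only are called acetylated KO-only peaks below.

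Open chromatin did not separate the genotypes in the same way. ATAC peaks of KO cells overlapped 7.46% of KO-only peaks and those of WT cells 9.64%, from lists of 58480 and 92071 peaks. Among KO-only peaks, 594 were open in the KO list only, 1217 in both and 1123 in the WT list only. Among acetylated KO-only peaks, 157 (14.8%) were open in the KO list only, 200 in both and 50 in the WT list only. In shared KO peaks the share open in the KO list only was 1.49%.

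**Figure D1:**
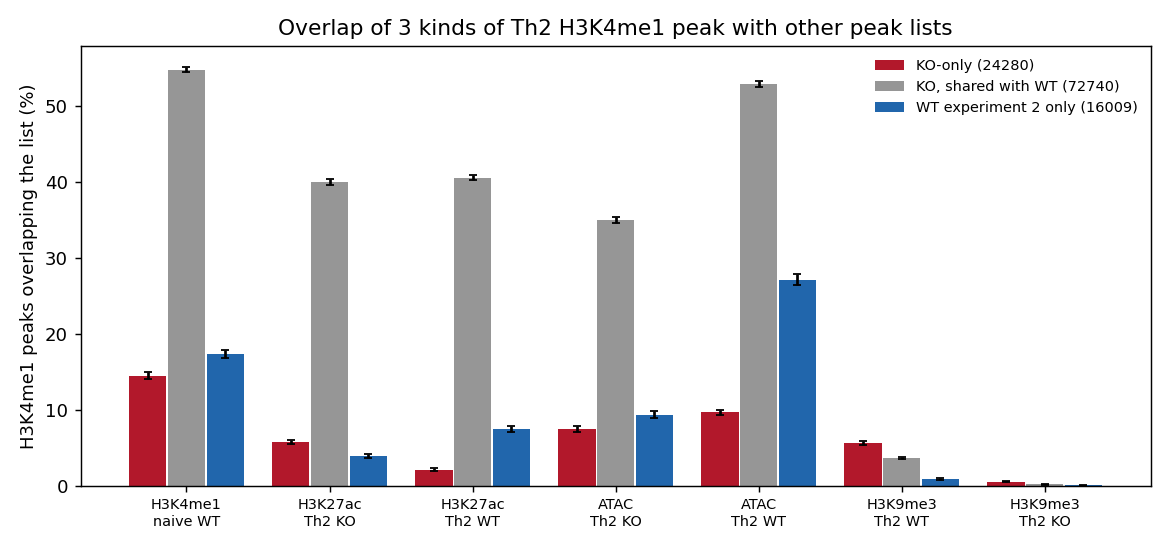
Share of H3K4me1 peaks (percent, vertical axis) that overlapped each of 7 peak lists (horizontal axis), for KO-only peaks (red), KO peaks shared with WT (grey) and second-experiment WT peaks absent from KO (blue); error bars are 95% exact binomial intervals over peaks. KO-only peaks stood at 14.5% in naive H3K4me1 against 54.7% of shared peaks, and at 5.63% in WT H3K9me3 against 3.71%.

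Some KO-only peaks stood where WT cells carried H3K9me3, and this was most frequent among the acetylated and the broad ones. H3K9me3 regions of WT Th2 cells overlapped 1368 KO-only peaks (5.63%, interval 5.35 to 5.93), against 3.71% of shared peaks and 0.887% of WT peaks absent from KO. Of acetylated KO-only peaks, 230 (21.7%) lay in WT H3K9me3. Of KO-only peaks over 2000 bp, 40.9% did, against 10.6% of shared peaks of that width. In KO Th2 cells the H3K9me3 list held 1700 regions, against 12222 in WT, and overlapped 0.552% of KO-only peaks and 5.86% of the acetylated ones. Of the 1368 KO-only peaks in WT H3K9me3, 91.2% overlapped no KO H3K9me3 region, and 95.8% overlapped the longer list of 43379 regions from Suv39h1-/- Th2 cells. Most acetylated KO-only peaks still lay outside WT H3K9me3. Counting peaks inside such a region as 0, the median distance to WT H3K9me3 was 18.6 kb for all acetylated KO-only peaks, 34.2 kb for all KO-only peaks and 33.5 kb for shared peaks.

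The Setdb1 gene itself carried KO-only peaks. Within 10 kb of the gene (chr3:95323525-95357202, minus strand) the KO list held 11 H3K4me1 peaks, of which 8 were KO-only and 3 were acetylated. These 3 flanked the start of the gene, with widths of 2567, 2317 and 2280 bp and scores of 26, 29 and 35, where 3 in 4 KO-only peaks were at most 481 bp wide and scored at most 17. The first covered 2890 to 5457 bp downstream of the start, and the others covered -3046 to -729 bp and -5939 to -3659 bp. In WT cells, H3K4me1 lay at 705 to 2207 bp and at -322 to -140 bp, where the KO list had none. A single KO H3K27ac peak ran from -5781 to 4034 bp, whereas the WT H3K27ac peak at the start ran from -2 to 946 bp. Between the 2 upstream KO-only peaks, WT Th2 cells had an H3K9me3 region at -3648 to -3098 bp, and KO cells had an ATAC peak at -3630 to -2949 bp that the WT ATAC list lacked. Naive WT cells had an adjacent H3K9me3 region at -3098 to -2698 bp, and neither the naive nor the Th2 KO list had any H3K9me3 region within 10 kb of the gene. In Suv39h1-/- Th2 cells the H3K9me3 list had a region at -3848 to -2248 bp. Setdb1 RNA was higher in the Th2 libraries labelled KO, as given above.

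**Figure D2:**
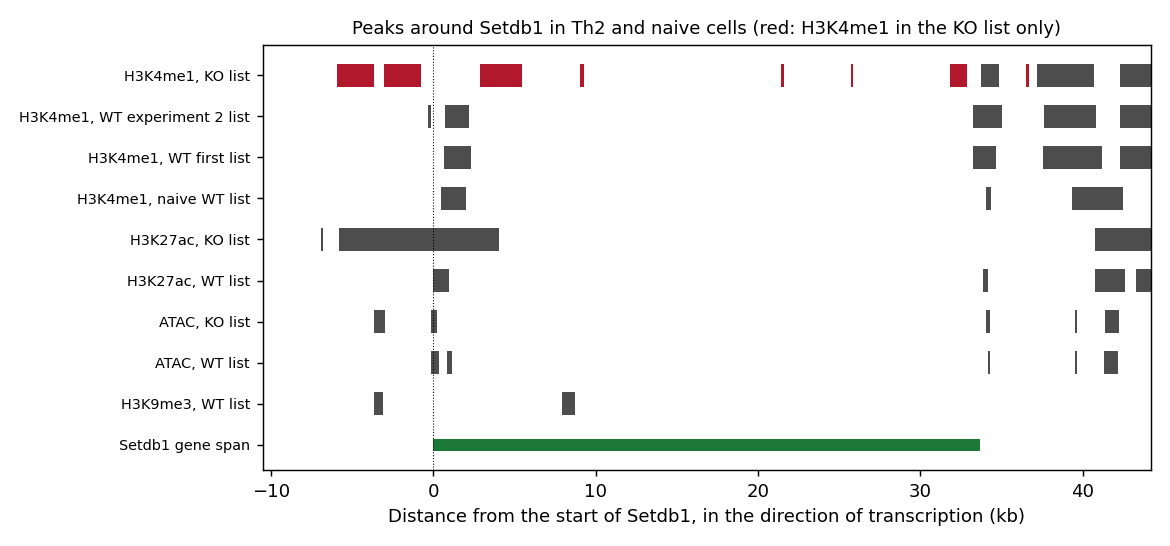
Peaks within 10 kb of Setdb1, drawn as bars by distance from the start of the gene in the direction of transcription (kb, horizontal axis), with 1 row per peak list and the gene span in green; red bars are KO-only H3K4me1 peaks. The 3 broad red bars flank the start, KO H3K27ac runs from -5781 to 4034 bp, and WT H3K9me3 at -3648 to -3098 bp lies between the 2 upstream red bars.

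KO-only peaks gathered in runs, in which consecutive KO peaks were all KO-only and no WT peak lay between them. The 24280 peaks formed 16891 runs, and 50.9% of peaks stood alone. There were 253 runs of 5 or more peaks, holding 7.23% of KO-only peaks, against 50 runs holding 1.8% among WT peaks absent from KO. Runs of 10 or more numbered 31 in KO (445 peaks, the longest with 25) and 3 in WT (the longest with 11). The 2 sets differ in rule and number: KO-only peaks were absent from 2 WT lists, whose peaks also broke their runs. The WT peaks numbered 16009 and were absent from 1 KO list, whose peaks broke theirs. The effect of this on run length was not tested. Acetylation was more frequent in longer runs, going from 2.5% of lone KO-only peaks to 4.48% in runs of 2 to 4, 13.4% in runs of 5 to 9 and 26.5% in runs of 10 or more. The share marked in naive cells went the other way, from 15.7% of lone peaks to 14.2%, 9.62% and 2.7%. The share in WT H3K9me3 was 4.6%, 6.03%, 11.5% and 8.09% in the same order. Median widths over these classes were 222, 264, 374 and 478 bp. Broader KO-only peaks were acetylated more often, as given above, and the part of width in these shares was not tested. In runs of 10 or more, 118 peaks were acetylated, of which the runs over Ccdc11, Vmn2r97 and Sfi1 held 12, 12 and 13.

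**Figure D3:**
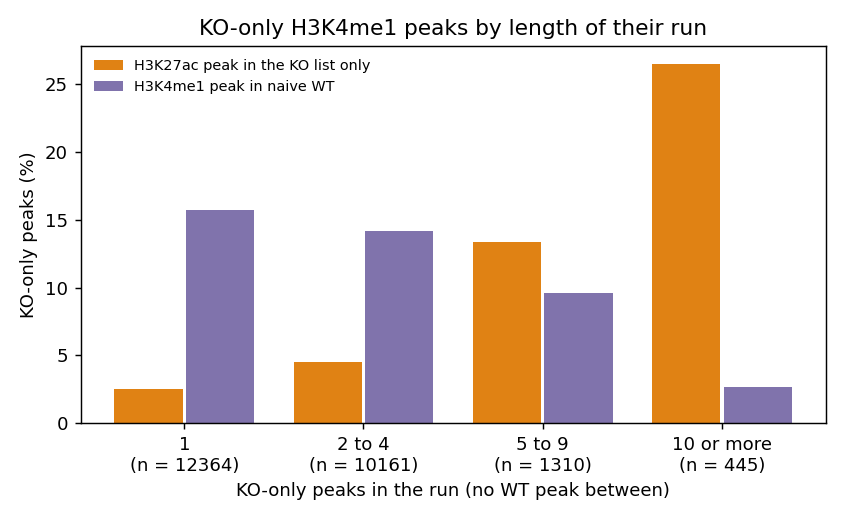
Share of KO-only H3K4me1 peaks (percent, vertical axis) that overlapped an H3K27ac peak in the KO list only (orange) or an H3K4me1 peak of naive WT cells (purple), by the number of KO-only peaks in their run (horizontal axis, with the number of peaks). Acetylation runs from 2.5% to 26.5% and naive marking from 15.7% to 2.7%.

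Of the 31 long runs, 8 lay in a cluster of vomeronasal receptor genes, which encode pheromone receptors of sensory neurons. In this stretch of 2.65 Mb (chr17:17899602-20550907), 172 of 194 KO H3K4me1 peaks were KO-only (88.7%) and 36 were acetylated. The same stretch held 28 second-experiment and 14 first-experiment WT H3K4me1 peaks. H3K27ac peaks numbered 67 in KO and 11 in WT, ATAC peaks 49 and 45, and H3K9me3 regions 16 in WT and 1 in KO. Of 34 Vmn2r genes there in the RNA table, 4 passed the filter on low values and 3 were called higher in KO, against 29.3% of all genes tested. Genes silent in WT could pass that filter only through KO or naive libraries, so this count is a description. Vmn2r96 read 6.05, 0 and 0 in Th2 WT and 524, 577 and 406 in KO (log2 8.02 ± 0.54, SE, limma, adjusted p = 3.41e-10). In naive cells it read 36.2, 91.8, 48.9 and 35.9 in WT and 571, 736 and 722 in KO (3.74, limma, adjusted p = 5.09e-05). Vmn2r97 was at 0 in all Th2 WT libraries and at 28.6, 23.7 and 20.5 in KO, at least 3.81-fold above the floor of 3 reads. The pseudogene Vmn2r-ps121 was likewise at 0 in WT and at 42.9, 28.7 and 33.5 in KO, at least 5.50-fold above it. In naive cells Vmn2r-ps121 was also higher in KO (log2 3.03, limma, adjusted p = 0.00154), and Vmn2r97 was not called. These receptors are close copies of each other, and the placing of reads that fit several copies is not stated in the labels used here, so the gene within the family is uncertain.

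Several other long runs covered genes with little RNA in Th2 WT cells. The longest run, of 25 peaks with 6 acetylated (chr15:44158335-44425181), covered Trhr, a hormone receptor gene whose RNA read 0, 1.86 and 0 in WT and 9.54, 9.4 and 8.99 in KO. Its call (log2 2.86, limma, adjusted p = 0.0272) was lost under several alternatives, including edgeR. The same run reached into Nudcd1, at 992, 1150 and 921 in WT and 1116, 1159 and 1096 in KO (0.14, limma, adjusted p = 0.359). The next, of 24 peaks with 12 acetylated, covered Ccdc11 (also Cfap53), a gene of motile cilia, and held a single KO-only peak of 21882 bp. Ccdc11 read 34.3, 13 and 32.4 in WT and 2773, 3281 and 2634 in KO (6.82 ± 0.86, limma, adjusted p = 1.6e-06). A run of 21 peaks (chr5:102956538-103305925) covered Mapk10, a kinase gene best known in neurons, at 2.02, 0 and 0 in WT and 17.5, 25.5 and 19 in KO (3.89, limma, adjusted p = 0.00638). Over all 31 long runs, 50 tested genes lay inside, of which limma called 21 (42.0%) higher and 4 lower, against 29.3% and 24.7% of all genes tested; their median log2 difference was 0.90. Of the 50, 21 lay in a single run of 19 peaks over 2215.1 kb in a zinc finger gene cluster (4 higher, 1 lower). Several of those 21 had no KO-only peak within 10 kb. Without predicted genes, 14 of 22 tested genes in the long runs were higher and 1 lower. Genes at 0 or near it in Th2 WT passed the filter through KO or naive libraries, so these counts are a description.

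Genes with more KO-only peaks were more often higher in KO. KO-only peaks were assigned to a gene when they lay in its span or within 10 kb of it, and 16217 of the tested genes (94.0%) had a position. Of the 17254 genes tested with limma, 54.0% were called at an adjusted p under 0.05, so a call by itself is common. Of genes with no KO-only peak, 23.9% were called higher and 27.6% lower, with a median log2 difference of 0.00. With 1 to 2 such peaks the shares were 32.1% and 24.7%, with 3 to 5 they were 42.1% and 18.3%, with 6 to 9 they were 47.3% and 16.2%, and with 10 or more (129 genes) they were 53.5% and 18.6% with a median of 0.70. Over all placed genes 30.0% were higher and 25% lower, at a median of 0.13. Longer genes hold more peaks: the median extended span ran from 31.6 to 286 kb over these classes, and the median RNA level from 145 to 1185. Within spans of up to 40 kb, 22.4% of genes with no KO-only peak and 39.3% of those with 3 or more were higher, and within 80 to 160 kb these shares were 26.5% and 49.7%. Over 160 kb they were 8.36% and 37.5%, but there the share called lower also went up, from 10.6% to 20%, and the median RNA level from 1.41 to 417. RNA level also differed between those classes, from 58.2 to 1012 at 80 to 160 kb, and its part was not tested.

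**Figure D4:**
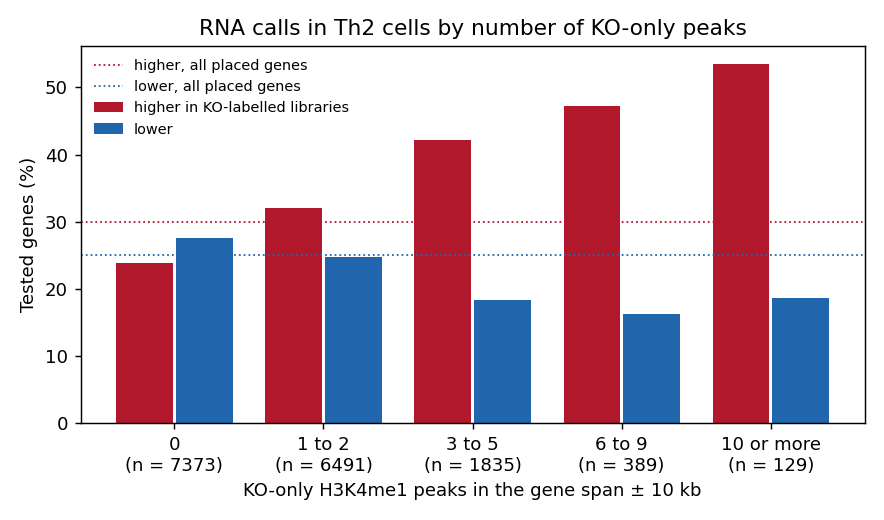
Share of tested genes (percent, vertical axis) called higher (red) or lower (blue) in KO than in WT Th2 cells at a limma adjusted p under 0.05, by the number of KO-only H3K4me1 peaks in the gene span with 10 kb on each side (horizontal axis, with the number of genes); dotted lines give the shares over all placed genes. The share of higher genes runs from 23.9% with no KO-only peak to 53.5% with 10 or more.

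Acetylated KO-only peaks lay at 747 genes, of which 563 passed the filter and were tested. Limma called 203 of them (36.1%) higher and 133 (23.6%) lower, at a median of 0.36. These shares were close to the 35.1% and 22.9% of the 8844 genes with any KO-only peak, and all placed genes stood at 30.0% and 25%. Differences over 4-fold were at 12.4% higher and 5.68% lower, against 7.62% and 7.87% of all placed genes. With 2 or more acetylated KO-only peaks (81 genes), 49.4% were higher and 12.3% lower, and the median was 1.03. Where the acetylated peak lay in WT H3K9me3 (124 genes), 44.4% were higher and 17.7% lower.

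The largest rises among genes with an acetylated KO-only peak were from near silence. Fgl1, a secreted ligand of the inhibitory receptor LAG-3, carried 6 KO-only peaks, 3 of them acetylated, and no shared KO peak. It read 4.03, 3.71 and 0 in WT and 2011, 2257 and 1527 in KO (log2 9.38 ± 0.84, SE, limma, adjusted p = 1.74e-08). Log2 differences of genes at or near 0 in WT depend on the pseudocount of 1 and are no bound. Ifi203, an interferon-inducible gene of the DNA-sensing family, had 7 shared KO peaks and 1 KO-only peak of 142 bp, acetylated and in WT H3K9me3. That peak lay just outside the gene span and scored 136, where the upper quartile of KO-only peaks was 17. Ifi203 read 2.02, 0 and 2.49 in WT and 578, 570 and 900 in KO (8.25 ± 0.34, limma, adjusted p = 5.22e-13). In naive WT cells Ifi203 stood at 4750 to 7843, so Th2 KO cells held a level between naive and Th2 WT cells. Stag3, a cohesin subunit of meiosis, read 88.7, 40.8 and 24.9 in WT and 2194, 2398 and 2132 in KO (5.61, limma, adjusted p = 1.94e-08). The dynein heavy chains of cilia followed: Dnah7a rose by 6.65 and Dnah12 by 5.26 on the log2 scale, with 12 and 13 KO-only peaks. Tubb3, a tubulin of neurons, read 0, 7.42 and 0 in WT and 139, 115 and 161 in KO (6.08, limma, adjusted p = 7.29e-07). Abca5, a lipid transporter, read 46.4, 31.5 and 39.9 in WT and 1024, 1143 and 1020 in KO (4.74, limma, adjusted p = 1.86e-10). In none of these genes did the Th2 groups overlap, as the rule for naming them required. Stag3 and Tubb3 were also higher in naive KO than in naive WT cells (log2 3.96 and 6.39, limma, adjusted p = 1.33e-05 and 2.77e-06). Fgl1, Ifi203, Dnah7a and Dnah12 were not called in naive cells, and Abca5 was lower in naive KO (-1.09, limma, adjusted p = 0.0180). Naive WT libraries were uneven, with reads in 15296 to 25556 genes. Dnah7a read 1.25, 0, 45.3 and 0.945 in naive WT and 13.6, 15.3 and 18.3 in naive KO. A missing call in naive cells therefore does not show an equal level.

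Ulbp1, a ligand of the killer receptor NKG2D, combined a high density of KO-only peaks with a rise in RNA. It had 11 KO-only peaks and 5 shared ones in 48.8 kb, with 4 of the KO-only peaks acetylated and 4 in WT H3K9me3. Its RNA read 115, 119 and 122 in WT and 2183, 1897 and 1959 in KO (log2 4.07 ± 0.19, SE, limma, adjusted p = 2.2e-12). On chromosome 13, a pair of neighbouring aldo-keto reductase genes with KO-only peaks moved in opposite directions. Akr1c12, with 7 KO-only peaks (5 acetylated), read 1115, 1269 and 1165 in WT and 11418, 10586 and 10124 in KO (3.18 ± 0.15, limma, adjusted p = 2.39e-12). Akr1c18, with 9 KO-only peaks (2 acetylated) and no shared one, read 1841, 2201 and 1726 in WT and 166, 182 and 174 in KO (-3.45 ± 0.71, limma, adjusted p = 0.000382). Akr1c genes are close copies of each other, so reads may have been split between them. Of the 12 genes with the most KO-only peaks per 10 kb (2.06 to 2.52), 6 were called higher, 2 lower and 4 neither, against 29.3% and 24.7% of all genes tested. Sfi1 held 20 KO-only peaks, 13 of them acetylated, and read 423, 559 and 452 in WT and 412, 449 and 470 in KO, with overlapping groups; many copies of parts of this gene exist, so peaks there are uncertain.

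Falls among genes with an acetylated KO-only peak were also found. Il1r2, a decoy receptor for interleukin-1, fell from 8541, 8074 and 9253 in WT to 236, 367 and 158 in KO (log2 -5.16, limma, adjusted p = 8.11e-07), with 3 KO-only peaks, 1 of them acetylated. Igf1r, the receptor of insulin-like growth factor 1, fell from 456, 468 and 599 to 27.8, 51.9 and 42.5 (-3.64, limma, adjusted p = 2.99e-10). P4ha2, an enzyme of collagen synthesis, fell from 2518, 2750 and 3213 to 118, 186 and 305 (-3.89, limma, adjusted p = 4.83e-10). Inhba, which encodes an activin subunit, fell from 252, 208 and 230 to 21.1, 36.3 and 19.5 (-3.17, limma, adjusted p = 0.00011). Il1r2, Igf1r, P4ha2 and Inhba held 8, 17, 7 and 6 shared KO peaks, beside 1 acetylated KO-only peak each.

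The genes with the most KO-only peaks had 22 to 35 each. Of these 12 genes, 9 were called higher, 2 lower and 1 neither, where 53.5% and 18.6% of all genes with 10 or more such peaks and 29.3% and 24.7% of all genes tested were called. Inpp4b, a phosphoinositide phosphatase, had 35 KO-only and 74 shared peaks and read 5789, 4886 and 5231 in WT and 20565, 19791 and 19405 in KO (log2 1.91 ± 0.09, SE, limma, adjusted p = 3.12e-12). Efna5, an ephrin ligand, had 34 and read 52.4, 33.4 and 47.4 in WT and 251, 309 and 374 in KO (2.79, limma, adjusted p = 0.00937). Itpr1, the calcium channel gated by inositol trisphosphate, had 24 and rose from 4583, 4310 and 5109 to 15345, 15897 and 14327 (1.70, limma, adjusted p = 4.68e-11). The transcription factor gene Rora had 24 as well and fell from 673, 824 and 1023 to 161, 150 and 113 (-2.56, limma, adjusted p = 3.32e-08). Gprin3 had 21 KO-only peaks, none acetylated, and rose from 903, 972 and 828 to 4961, 4514 and 5008 (2.42, limma, adjusted p = 1.65e-09).

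Several genes with many KO-only peaks that were already marked in naive cells had high RNA in naive cells. Genes chosen for their number of naive-marked KO-only peaks, after values were seen, were led by Foxp1, a factor that keeps T cells quiescent, with 17 of its 25 KO-only peaks marked in naive WT cells. Foxp1 stood at 7680, 7732, 7720 and 8011 in naive WT, at 256, 232 and 230 in Th2 WT and at 1797, 1701 and 1924 in Th2 KO (log2 2.91 ± 0.13, SE, limma, adjusted p = 1.02e-12). Arid1b, a chromatin remodelling subunit, read 736, 887 and 1043 in Th2 WT and 2283, 2533 and 2448 in KO (1.46, limma, adjusted p = 1.2e-06), and Fyn, a T cell kinase, rose from 1010, 1171 and 1145 to 3026, 3202 and 3644 (1.57, limma, adjusted p = 1.6e-10). Satb1, a chromatin organiser of T cells, went the other way, from 19373, 19593 and 23076 to 10347, 14766 and 13408 (-0.70, limma, adjusted p = 8.58e-05). Tox, a factor of exhausted and follicular T cells, had 15 KO-only peaks, 5 of them naive-marked, and read 2.02, 0 and 0 in Th2 WT, 81.1, 101 and 181 in KO and 847 to 1086 in naive WT (6.32, limma, adjusted p = 5.45e-10). Of the 12 genes chosen in this way, 6 were called higher, 2 lower and 4 neither, against 29.3% higher and 24.7% lower of all genes tested. Over all 2276 tested genes with a naive-marked KO-only peak, 38.4% were higher and 20.7% lower, near the 35.1% and 22.9% of genes with any KO-only peak. Of the 15 genes listed for naive and quiescent cells, 13 had KO-only peaks, 69 in all with 41 naive-marked. Of those 13 genes, 3 were called higher, 7 lower and 3 neither, so genes of the list moved in both directions.

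Lineage lists were read through their genes with and without KO-only peaks, beside the 29.3% higher and 24.7% lower of all genes tested. Of 15 Th1 genes with such peaks, 10 were called higher and 2 lower, and of the 11 without, 4 and 3. Of 15 Th2 genes with such peaks, 2 were higher and 7 lower, and of the 8 without, 1 and 5. Of 15 interferon-stimulated genes with KO-only peaks, 14 were higher and none lower, but of the 15 without such peaks 12 were higher too. Mx1, an antiviral GTPase with 3 KO-only peaks, rose from 68.6, 81.6 and 42.4 to 837, 1068 and 1092 (log2 3.98, limma, adjusted p = 4.89e-07). Treg genes with KO-only peaks numbered 7 (2 higher, 3 lower; of 6 without, 1 and 2), Th17 genes 7 (0 higher, 4 lower; of 1 without, 0 and 1) and Tfh genes 7 (3 higher, 3 lower; of 3 without, 0 and 3). Neuronal and muscle genes numbered 9 (4 higher, 0 lower), with 1 higher of 5 without. Over the 12 lists, 12.7% to 38.6% of the KO peaks at a list's genes were KO-only, around the 25% of all KO peaks, and acetylated KO-only peaks numbered 0 to 2 per list.

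The master genes of both lineages held few KO-only peaks. Tbx21, which encodes the Th1 factor T-bet, held none, and Ifng, its target cytokine, held 1. Ifng read 4.03, 7.42 and 9.98 in Th2 WT and 114, 74.3 and 59.5 in KO (log2 3.38, limma, adjusted p = 0.000349). Eomes, a T-box factor of cytotoxic cells, held 1 and rose from 0, 0 and 4.99 to 153, 86.9 and 83.9 (5.85, limma, adjusted p = 4.11e-07). Stat4, which relays IL-12, held 4 and rose from 1143, 1073 and 993 to 3605, 2933 and 3684 (1.67, limma, adjusted p = 4.17e-09). Il12rb2, a chain of the IL-12 receptor, also held 4 and fell from 341, 249 and 404 to 81.5, 90.9 and 106 (-1.81, limma, adjusted p = 0.00135). Il4 held none and fell from 2176, 1759 and 1936 to 621, 663 and 567 (-1.66, limma, adjusted p = 3.13e-05), and Il13 held 1 and fell by 1.70 on the log2 scale (limma, adjusted p = 0.000719). Gata3, the master factor of Th2 cells, held 2 and read 2200, 2004 and 2303 in WT and 1883, 2467 and 2371 in KO, with overlapping groups (0.04 ± 0.20, limma, adjusted p = 0.901).

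**Figure D5:**
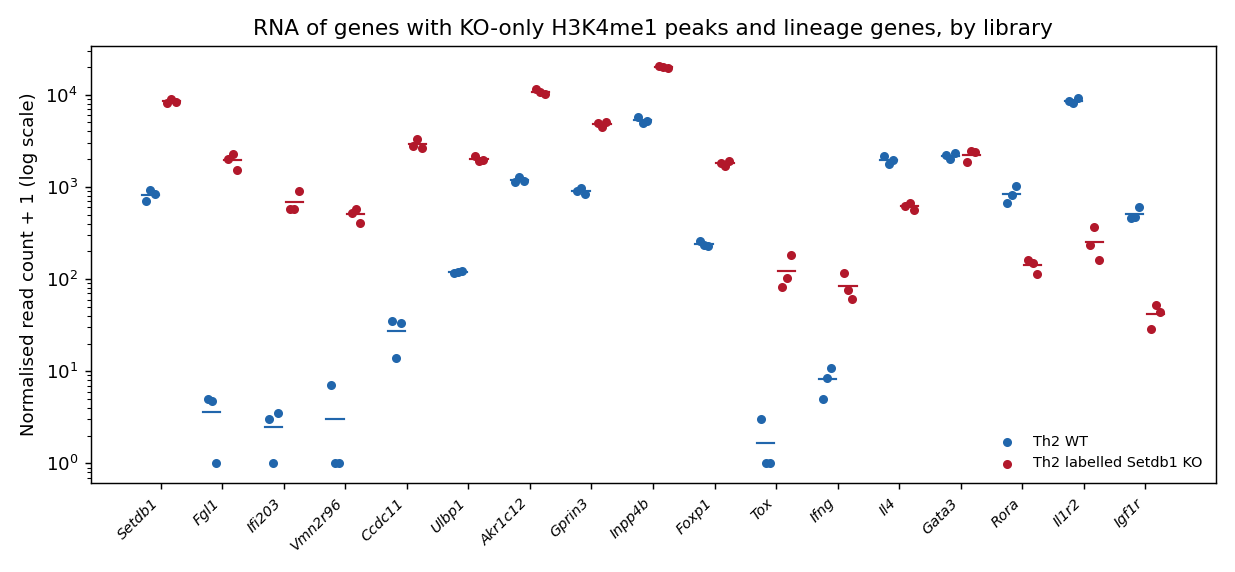
Normalised read count plus 1 (vertical axis, log scale) of 17 genes (horizontal axis) in each Th2 library, WT in blue and labelled Setdb1 KO in red; points are libraries and short lines are means, 3 libraries per group. Fgl1 and Ifi203 lie below 10 in WT and above 500 in KO, the Gata3 groups overlap, and Rora, Il1r2 and Igf1r lie lower in KO.

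Markers of the cultured and of other cell types were read in the same 6 libraries. The Th2 marker genes summed to 111486 to 114827 in WT and 83076 to 95757 in KO, so Th2 markers were abundant in both. Cytotoxic and NK receptor genes summed to 25599 to 29440 in WT and 11049 to 17886 in KO, and without Gzmb, its most abundant gene, to 11317 to 14527 and 5887 to 6035. The 15 tested genes of that list nevertheless had a median log2 difference of 1.23, with 4 higher and 2 lower, and 6 of them held KO-only peaks (2 higher, 1 lower). B cell genes summed to 341 to 454 and 758 to 1319 (7 with KO-only peaks, 0 higher and 1 lower), and myeloid genes to 286 to 456 and 164 to 458 (5 with KO-only peaks, none called). Erythroid and platelet genes summed to 35.3 to 79.8 in WT and 390 to 440 in KO (2 with KO-only peaks, 1 higher), with Hba-a1 at 415, 379 and 380 in KO and 2 of 8 genes at 0 in all 6 libraries. The part of these other cell types in the results above was not tested.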

How the data were processed

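The KO-only peaks, gene lists and named genes were chosen with earlier results of these data known. Signal values in the RNA table are the authors' deposited normalised read counts per gene, given in 2 identical copies of 39179 genes, of which the first was used. Whole reads were recovered from 100% of values within 0.01. Scores (10 times -log10 q) and the fold ratio over background in the peak lists are the authors' own, per the file headers' MACS2 layout, and no label states the scale of the H3K9me3 lists. Tools named in the submitters' processing notes are cutadapt 1.3, TopHat2 2.0.5, BWA 0.7.10, MACS2 2.1.0 and DESeq, with the mm10 build.

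Peaks were compared by overlaps of at least 1 bp, with exact Clopper-Pearson intervals at 95%. RNA tests used limma 3.58.1 with trend, on log2(value + 1) over 18 libraries with 1 coefficient per group. Genes at 10 or more in at least 2 libraries were kept (17254), with Benjamini-Hochberg adjustment and a threshold of 0.05. The script was tested on simulated data. Alternatives were edgeR 4.0.16 and DESeq2 1.42.0 on recovered reads, other pseudocounts and filters, left-out libraries, other rules for KO-only peaks and other windows. edgeR called 9386 genes. Gene positions and promoters came from RefSeq, matched by symbol or synonym. Replicate numbers were not used to pair libraries.

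Named genes were Setdb1 and 10 lineage genes, the 12 with the most KO-only peaks and the 12 with the most per 10 kb (at least 3 peaks), the 10 largest changes each way with an acetylated KO-only peak (mean at least 50, groups apart), and up to 4 per list (12 lists). The text names a selection, made after their values were seen. Genes inside long runs, at promoters or with naive-marked peaks were added later.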

Additional observations from a re-analysis of the deposited data

Results flagged for a closer look

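Several genes with KO-only peaks moved one way in Th2 cells and the other way under the same contrast in naive or Th2-Th1 cells, with every KO library on one side of every WT library each time. These differences between conditions were not tested. In naive cells the KO minus WT log2 difference was -0.38 for Setdb1, -2.64 for Eomes, -1.09 for Abca5, 1.07 for Sh3rf1, 3.69 for Nrp1, 0.79 for Cd200 and 0.97 for Bach2. The corresponding Th2 differences were 3.37, 5.85, 4.74, -0.80, -0.65, -1.96 and -1.25. In Th2-Th1 cells it was 3.79 for Il12rb2, -0.50 for Inpp4b, -0.31 for Itpr1, 0.97 for Rora, -0.56 for Tiam1, 0.76 for Sh3rf1, 0.88 for Stat5b, 0.20 for Stat6 and 2.56 for Gzmb, against Th2 differences of -1.81, 1.91, 1.70, -2.56, 0.63, -0.80, -1.35, -0.86 and -0.77. Of these differences, those of Nrp1 and Gzmb in Th2 cells and that of Stat6 in Th2-Th1 cells did not pass the limma threshold.

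Among the 4 naive WT libraries, Foxp1 stood apart in the one at 8011, whose gap to the next was 0.844 of the group's range. Chance alone marks about 1 in 20 groups in this way.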

How the results depend on the processing

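Shares of KO-only peaks moved with the rule that chose them; shares are given in the order naive H3K4me1, KO H3K27ac, WT H3K27ac, KO ATAC, WT ATAC and WT H3K9me3. With no WT peak within 1 kb they were 12.9%, 6.04%, 1.54%, 8.76%, 10.9% and 6.09%. Counting peaks as shared only where WT peaks covered at least 50% of their bases gave 19.1%, 8.70%, 4.36%, 10.7%, 14.1% and 6.09%. Against the second WT list alone they were 21.7%, 8.66%, 5.87%, 9.84%, 14.5% and 4.87%, and against the first alone 15.6%, 6.39%, 2.93%, 8.30%, 11.5% and 5.16%. Only 5204 KO-only peaks scored at or above the median of the KO list, with shares of 16.5%, 14.9%, 3.67%, 15.1%, 15.6% and 9.34%; with these alone, runs of 10 or more numbered 5 in place of 31, and 25.6% of the acetylated ones lay in WT H3K9me3 (an alternative chosen after seeing the data). KO H3K27ac exceeded WT H3K27ac under each rule. Genes with an acetylated KO-only peak called higher and lower numbered 120 and 87 within the gene span only, 453 and 285 within 50 kb, and 116 and 87 at or above the median score.

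Calls in RNA numbered 9324 and, with 1 Th2 library left out, 8346 to 8786. Deviations of same-numbered Th2 KO and WT libraries had correlations of -0.002 to 0.019, so no pairing by number was seen. Such low correlations cannot exclude that same-numbered libraries were prepared together. With a replicate block 9359 genes were called. TMM scaling, chosen after seeing the data, shifted the median over all tested genes from 0.13 to 0.24, and that of genes with 10 or more KO-only peaks from 0.70 to 0.84. Gata3, not called, changed sign without WT replicate 2 (-0.02), KO replicate 2 (-0.04) or KO replicate 3 (-0.01), within a range of -0.04 to 0.16 over left-out libraries. Sfi1, not called, changed sign with edgeR (0.03), without WT replicate 2 (0.02) and with TMM (0.04), within -0.18 to 0.02 over left-out libraries. Trhr lost its call in 7 of 14 alternatives. Dppa3 and Il5, left out of the text above, lost theirs in 2 and 1. The cause of these changes was not tested. The low depth of the WT libraries limits genes near 0.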

Other observations

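The KO-only peaks with the highest scores were narrow and mostly lay in KO H3K27ac. The 50 highest-scored had a median width of 166 bp, 32 of them were narrower than 200 bp, 47 lay in KO H3K27ac peaks, 13 in WT H3K27ac peaks, 27 in ATAC peaks of both genotypes and 14 in WT H3K9me3. The widest KO-only peak, of 30828 bp, lay on the X chromosome at chrX:170808533-170839360 in H3K27ac, ATAC and H3K9me3 peaks of both Th2 genotypes.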
